A study of Mus musculus with 39 samples.

Results

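The effect of the loss of Mat1a on the liver transcriptome was followed from steatosis to non-alcoholic steatohepatitis. Of the 39 liver arrays of the series, the 20 arrays of the MAT1A cohort were used, taken by their labelled genotype. They fall into 4 groups of 5 arrays: MAT1A knockouts (KO) of 3 months, labelled steatosis, MAT1A KO of 8 months, labelled non-alcoholic steatohepatitis, and wild types (WT) of 3 and of 8 months, labelled healthy. All 20 arrays are of liver from mice labelled C57B6SJL with no treatment. No source used here gives the sex or the diet of the mice. For every gene the KO effect, that is the mean of the KO minus the mean of the WT of the same age, was calculated at each age, and the change of the effect was calculated as the effect at 8 months minus the effect at 3 months. The values are log2 expression levels, so a difference of 1 is a doubling, and each difference is given with its standard error (SE, n = 5 arrays in each group). The KO are labelled biological replicates and the WT only replicates. Different mice were sampled at the ages, and the labels name no array batch, so that the age and the time at which the arrays were run cannot be told apart. The change of the effect is a difference of differences in which a shift shared by the KO and WT arrays of an age drops out.

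Mat1a encodes the methionine adenosyltransferase of the adult liver, the enzyme which makes S-adenosylmethionine (SAMe), the methyl donor of most methylation reactions. When it is missing, methionine accumulates and SAMe falls, the export of lipids and the oxidant defence of the hepatocyte are impaired, and fat accumulates in the liver before inflammation appears. Steatosis is the storage of fat in hepatocytes, and steatohepatitis adds inflammation and hepatocyte injury.

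Mat1a was lower in every KO liver at both ages. It lay between 12.58 and 13.14 in the 10 WT arrays and between 9.06 and 9.78 in the 10 KO arrays. The effect of -3.12 ± 0.11 at 3 months and of -3.41 ± 0.11 at 8 months did not pass the test for a change between the ages (adjusted p = 0.494). Gnmt, the methyltransferase that consumes SAMe, lay between 13.68 and 13.99 in all 20 arrays and was not called in any comparison. The tissue label was checked with 44 hepatocyte secreted proteins, whose mean level lay between 11.75 and 12.07 in every array, whereas the mean over 12 muscle genes lay between 4.36 and 4.58 and the mean over 9 kidney genes between 3.86 and 4.15. The X-linked Xist lay between 3.39 and 3.66 and the Y-linked Eif2s3y between 6.03 and 6.73 in all 20 arrays. The first principal component of the 20 arrays held 36.4% of the variance and had KO and WT on opposite sides, and the second held 13%.

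Of 18194 genes tested, 1415 were called in the KO at 3 months (7.78%), with 871 higher (4.79%) and 544 lower (2.99%), where a call is an adjusted p below 0.05. At 8 months 3210 genes were called (17.6%), 1489 higher (8.18%) and 1721 lower (9.46%). The 5 KO and 5 WT arrays did not overlap for 8.05% of the genes at 3 months and 13% at 8 months, and the ages did not overlap for 4.62% in the KO and 4.99% in the WT. A change of the effect between the ages was called for 101 genes (0.555%), 37 with a higher (0.203%) and 64 with a lower effect at 8 months (0.352%), and 2015 genes had an unadjusted p under 0.05 for it. The count of called changes rested on single arrays: leaving out 1 of the 20 arrays in turn gave between 35 genes, without WT replicate 3 of 3 months, and 236 genes, without WT replicate 1 of 3 months. Of the 101 genes, 33 were called in the same direction in all 20 omissions, and only part of these are named below. Those named are marked as such, except Anxa13, Tnfaip8l1, Trib3 and Cdh1, which were also among the 33. Omission was not the only setting that moved the calls: with all 39 arrays of the series in 1 fit 46 genes were called, 36 of them among the 101, and without moderated variances 37, all among the 101. The majority of lower effects also rested on 1 array, since without KO replicate 5 of 8 months 87 changes were higher and 77 lower, and 1636 genes were higher and 1547 lower in the KO at 8 months.

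The genes were sorted by these calls. Early and kept were 963 genes called at both ages in the same direction, 576 higher and 387 lower, which make up 68.1% of the calls at 3 months and 30% of those at 8 months. Late only were 66 genes called at 8 months, not called at 3 months and called for the change, 20 that rose and 46 that fell. Early only were 15 genes called at 3 months, not called at 8 months and called for the change, 7 that rose and 8 that fell. Ccr2, the receptor that brings monocytes into tissue, was called in opposite directions (-0.22 ± 0.06 and 0.18 ± 0.06), calls that were lost without any 1 of 6 and of 16 arrays. Its group means were all below the array medians (4.91 to 5.04), and its brightest probe set read -0.16 and 0.06. A further 2180 genes called only at 8 months and 436 called only at 3 months did not pass the test for a change, so that a difference between the ages was not shown for them. Since the classes were cut from these calls, the values of their members describe the classes and are no further support. At the threshold, Slc25a22 and Hsd3b5 were the last genes inside (adjusted p = 0.0487 each) and Dixdc1 (0.0525) and Casp12 (0.0536) the nearest outside.

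**Figure D1:**
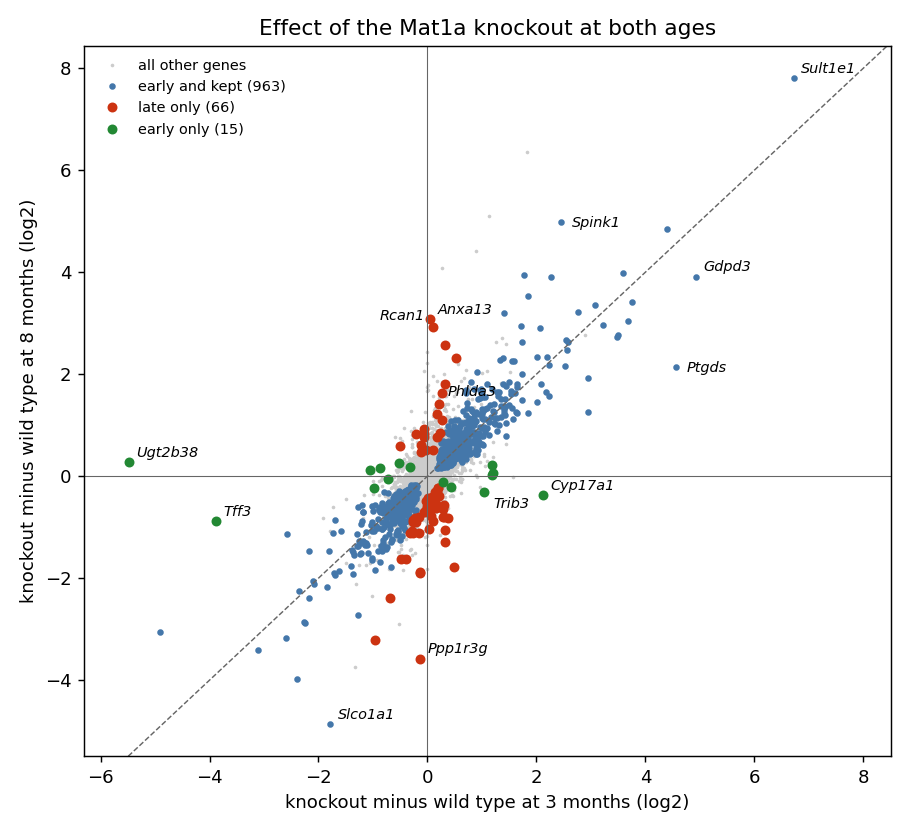
Effect of the Mat1a knockout at 3 months (horizontal, log2) against 8 months (vertical, log2), 1 point for each of 18194 genes. The dashed line marks equal effects: the 963 early and kept genes (blue) lie along it, the 66 late only genes (red) lie near 0 on the horizontal axis, and the 15 early only genes (green) lie near 0 on the vertical axis.

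Among the genes which were already changed in steatosis and kept, 944 of 963 did not pass the test for a change of the effect, and 17 had a larger and 2 a smaller effect at 8 months. The median size of the effect over the 963 genes was 0.498 at 3 months and 0.558 at 8 months, against 0.0875 and 0.1006 over all genes. Sult1e1, the sulfotransferase that inactivates estrogens, had the largest kept rise, 6.72 ± 0.31 and 7.81 ± 0.31. Its level lay between 3.87 and 5.52 in the 10 WT arrays and between 10.53 and 12.36 in the 10 KO arrays, with no overlap. Asns, the asparagine synthetase induced when amino acids are short, rose by 4.40 ± 0.28 and 4.85 ± 0.28, although its level fell with age in KO and in WT. Cd36, a fatty acid transporter, rose by 2.23 ± 0.16 and 1.58 ± 0.16, and Lpl, the lipoprotein lipase that adult liver makes little of, by 1.40 ± 0.16 and 2.32 ± 0.16. On the other side Elovl3, an elongase of long fatty acids, fell by 2.40 ± 0.51 and 3.97 ± 0.51, Scd1, the stearoyl-CoA desaturase, by 1.71 ± 0.21 and 0.87 ± 0.21, and Mbl2, a mannose-binding lectin of the complement system, by 2.57 ± 0.25 and 1.14 ± 0.25. Dct, an enzyme of melanin synthesis, fell by 4.91 ± 0.47 and 3.05 ± 0.47.

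Within this class some single livers stood apart. Gdpd3, a lysophospholipase D, was at 10.44, 9.86, 9.87, 9.31 and 9.84 in the KO of 3 months and at 10.01, 8.94, 10.89, 4.74 and 9.49 in the KO of 8 months, against 4.68 to 5.08 in the 10 WT. KO replicate 4 of 8 months was thus at the WT level while the other 9 KO livers were far above it. Serpina5, a serine protease inhibitor, was at 5.31 in KO replicate 1 of 3 months and between 6.88 and 9.30 in the other 9 KO livers, and Elovl3 was at 7.65 in the same replicate and between 9.21 and 11.30 in the other KO of 3 months. Adi1, an enzyme of the methionine salvage pathway, fell by 2.09 ± 0.09 and 2.06 ± 0.09 as the mean of 3 probe sets which differed among themselves: they read -4.58, -1.59 and -0.10 at 3 months and -4.94, -1.43 and 0.17 at 8 months.

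Lrit1, a membrane protein of the retina whose gene is on the chromosome of Mat1a, fell by 2.26 ± 0.21 and 2.86 ± 0.21. In the gene order of the RefSeq annotation, 1 of the 20 genes nearest to Mat1a, 10 on each side, was early and kept (Txndc16), against 5.29% of all genes. Among the nearest 50, 25 on each side, 5 were early and kept (Lrit1, Lrit2, Txndc16, Ddhd1 and Bmp4), and 11 among the nearest 100. None of those 100 was called for a change of the effect, against 0.555% of all genes.

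Spink1, a trypsin inhibitor that marks regenerating and malignant hepatocytes, was raised in steatosis and raised further in steatohepatitis. In the WT it was at 4.28, 4.58, 4.33, 4.62 and 5.63 at 3 months and at 4.05, 4.25, 3.96, 4.02 and 4.67 at 8 months. In the KO it was at 7.60, 7.46, 6.55, 7.10 and 6.96 at 3 months and at 9.08, 8.80, 9.87, 9.12 and 9.02 at 8 months. The KO groups overlapped neither with the WT nor with each other. The effect grew from 2.45 ± 0.24 to 4.98 ± 0.24 (change 2.54 ± 0.34, adjusted p = 0.00163). The call held in all 20 omissions and was lost in the fit of all 39 arrays (adjusted p = 0.25, range over the alternatives 0.000593 to 0.25).

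A larger effect at 8 months was called for 7 further genes that rose and 9 that fell. Parp16, a mono-ADP-ribosyltransferase of the endoplasmic reticulum that takes part in the unfolded protein response, rose by 1.40 ± 0.22 and 3.19 ± 0.22. Pls1, an actin-bundling plastin of microvilli, rose by 1.77 ± 0.30 and 3.95 ± 0.30, and Bex4 by 1.85 ± 0.23 and 3.53 ± 0.23. The change of Parp16 held in all 20 omissions, that of Bex4 was lost without KO replicate 1 of 8 months, and that of Pls1 without any 1 of 3 arrays. Cdh1, the E-cadherin of epithelial junctions, differed from these in how it moved, since the WT fell by 0.81 ± 0.09 from 3 to 8 months and the KO was not called (-0.16 ± 0.09). In the fit of all 39 arrays neither its effect at 3 months nor its change was called (adjusted p = 0.341 and 0.628, lowest over the alternatives 0.000866 and 0.00387).

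Transporters of the bile acid pathway were among the falls that grew. Slco1a1, which encodes an organic anion transporter of the sinusoidal membrane that takes up bile salts and steroid conjugates, was at 11.23, 10.81, 11.02, 11.14 and 10.60 in the WT of 3 months and at 10.64, 11.12, 10.79, 11.17 and 11.11 in the WT of 8 months. It was at 7.50, 9.67, 9.22, 10.22 and 9.28 in the KO of 3 months and at 6.50, 5.84, 6.53, 5.52 and 6.16 in the KO of 8 months. All 10 KO were below all 10 WT, all KO of 8 months were below all KO of 3 months, and KO replicate 1 was the lowest of its age at 3 months. The effect went from -1.78 ± 0.33 to -4.86 ± 0.33 (change -3.08 ± 0.46, adjusted p = 0.00401), with like values in its 2 probe sets (-3.21 and -2.95). Abcb11, the bile salt export pump of the canaliculus, had an effect of -0.87 ± 0.09 at 3 months and -1.68 ± 0.09 at 8 months (change -0.81 ± 0.13, adjusted p = 0.00533). It lay between 11.68 and 12.08 in the 10 WT, between 10.84 and 11.06 in the KO of 3 months and between 9.97 and 10.60 in the KO of 8 months. Both calls held in all 20 omissions.

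Of 27 measured genes of bile acid synthesis and transport, 2 were higher and 5 lower in steatosis and 3 were higher and 9 lower in steatohepatitis, with medians of -0.134 and -0.32, and 4 were called for a change (1 higher, 3 lower). Of all genes, 4.79% were higher and 2.99% lower at 3 months, and 8.18% were higher and 9.46% lower at 8 months. A change was called for 14.8% of the list and for 0.555% of all genes. Slc10a1, the sodium-dependent uptake transporter of bile salts, was not called at 3 months (-0.19 ± 0.08, adjusted p = 0.192) and fell by 0.63 ± 0.08 at 8 months, without a called change (adjusted p = 0.0888). Cyp27a1, which starts the acidic pathway of bile acid synthesis, fell by 0.43 ± 0.05 and 0.63 ± 0.05 as the mean of a bright probe set (-0.76 and -1.09) and one near 2.9 (-0.10 and -0.18). Slc51b, a subunit of the basolateral export transporter, rose by 0.79 ± 0.16 and 1.05 ± 0.16. Akr1d1, the reductase of the steroid nucleus in bile acid synthesis, went the other way from steatosis to steatohepatitis, from -0.52 ± 0.11 to 0.25 ± 0.11 (change 0.77 ± 0.16, adjusted p = 0.0285). Omitting any 1 of 7 arrays ended this call, and the fit of all 39 arrays ended that at 3 months (adjusted p = 0.483, lowest over the alternatives 0.00134). Klb, the co-receptor through which intestinal FGF signals to the hepatocyte, was not called for age in the KO (-0.12 ± 0.08) and rose in the WT (0.45 ± 0.08), with a change of the effect of -0.57 ± 0.12 that was lost without any 1 of 9 arrays.

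**Figure D2:**
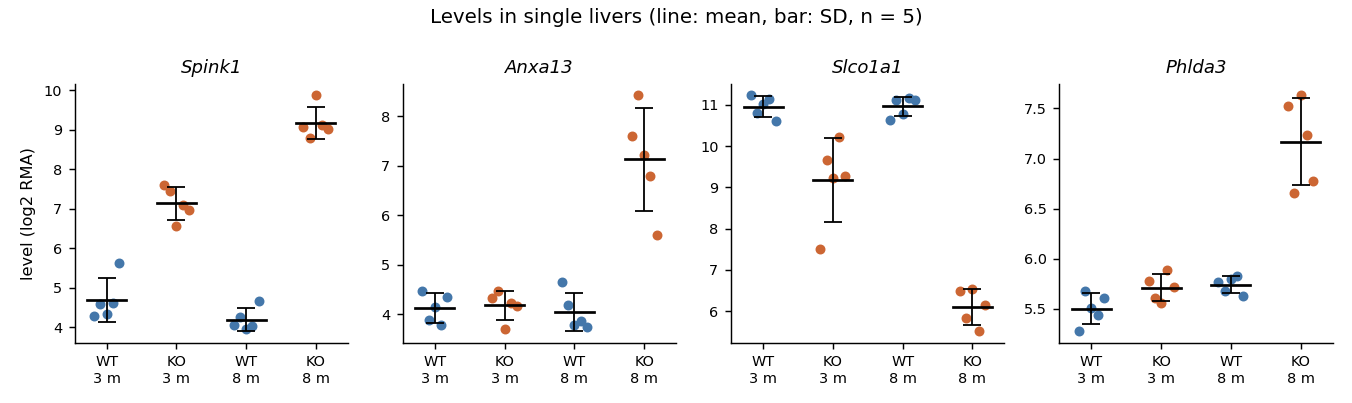
Level (log2 RMA value) of Spink1, Anxa13, Slco1a1 and Phlda3 on each of 20 arrays, by genotype and age (m, months). Points are single arrays, lines the group means and bars the SD (n = 5). Spink1 and Slco1a1 were already apart at 3 months and further apart at 8 months, and Anxa13 and Phlda3 were apart at 8 months.

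Anxa13, an annexin of epithelial cells of the intestine and kidney, was a late only gene. It was at 4.48, 3.89, 4.15, 3.78 and 4.35 in the WT and at 4.34, 4.47, 3.71, 4.23 and 4.17 in the KO of 3 months, and at 4.65, 4.19, 3.78, 3.87 and 3.74 in the WT of 8 months. In the KO of 8 months it was at 7.61, 8.42, 7.21, 6.79 and 5.61, above every other array, with replicate 5 the lowest. The effect was 0.05 ± 0.34 at 3 months and 3.08 ± 0.34 at 8 months (change 3.03 ± 0.47, adjusted p = 0.00497). The other 3 groups were below the array medians (4.91 to 5.04).

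Rcan1, an inhibitor of the phosphatase calcineurin, and Mgst2, a glutathione transferase of membranes, rose in the same way. Rcan1 was at 8.01, 7.51, 7.96, 8.63 and 7.96 in the KO of 3 months and at 10.33, 9.54, 10.26, 11.18 and 8.85 in the KO of 8 months, against 6.76 to 8.58 in the 10 WT. Its effect went from 0.11 ± 0.32 to 2.93 ± 0.32 (adjusted p of the change = 0.00505). The effect on Mgst2 went from 0.52 ± 0.19 to 2.32 ± 0.19 (adjusted p = 0.00425), and both held in all 20 omissions. Tinag, a basement membrane protein known from the kidney tubule, was between 3.31 and 4.27 in the other 15 arrays and at 7.05, 7.57, 5.67, 5.44 and 5.05 in the KO of 8 months. Its change of 2.25 ± 0.46 (adjusted p = 0.0282) was lost without any 1 of 6 arrays, as was that of Gipc2 (1.49 ± 0.30), and that of Lrtm2 (1.36 ± 0.27) was lost without any 1 of 4. Pik3r1, the regulatory subunit of phosphoinositide 3-kinase in insulin signalling, rose by 1.23 ± 0.16 at 8 months, with a change of 1.06 ± 0.23 that was lost without any 1 of 9 arrays.

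Over the 20 late only genes that rose, KO replicate 5 was the lowest KO of 8 months in 10 genes and the highest in 3.

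Targets of p53, the transcription factor that answers DNA damage, were among the late rises. Phlda3, a p53 target that restrains the kinase AKT, was at 5.28, 5.68, 5.51, 5.44 and 5.61 in the WT and at 5.78, 5.61, 5.56, 5.89 and 5.72 in the KO of 3 months. At 8 months it was at 5.77, 5.68, 5.80, 5.83 and 5.63 in the WT and at 7.52, 6.66, 7.63, 7.24 and 6.78 in the KO. The genotypes overlapped at 3 months, and every KO of 8 months was above every other array. The effect was 0.21 ± 0.14 and then 1.42 ± 0.14 (change 1.22 ± 0.20, adjusted p = 0.00792). Ccng1, the p53 target cyclin G1, was at 8.15, 8.10, 7.95, 8.07 and 7.77 in the KO of 3 months and at 9.27, 8.49, 9.32, 8.97 and 8.74 in the KO of 8 months. In the 10 WT it lay between 7.92 and 8.33, below all KO of 8 months. Its effect went from -0.20 ± 0.13 to 0.84 ± 0.13 (adjusted p of the change = 0.0103), with changes of 0.95, 1.08 and 1.08 in its 3 probe sets. Both calls held in all 20 omissions, and in the fit of all 39 arrays that of Ccng1 held and that of Phlda3 was lost (adjusted p = 0.0738, range over the alternatives 0.00103 to 0.0738).

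Of 32 measured p53 targets, 1 was higher and 1 lower at 3 months, and 12 were higher and 5 lower at 8 months. The list was called in 6.25% and 53.1% of its genes, against 7.78% and 17.6% of all genes. The median effect was -0.007 at 3 months and 0.217 at 8 months, against -0.0092 over all genes at 8 months. Only Phlda3 and Ccng1 among them were called for a change (6.25% of the list, against 0.555% of all genes). Cdkn1a, the cell cycle inhibitor p21, was at 6.32, 7.38, 7.82, 6.47 and 6.04 in the KO of 3 months and at 9.28, 7.73, 9.48, 8.91 and 8.02 in the KO of 8 months, against 6.32 to 7.15 in the 10 WT. It rose by 1.96 ± 0.32 at 8 months, and its change of 1.85 ± 0.46 did not pass the test (adjusted p = 0.0786). Aen, an apoptosis-enhancing nuclease, rose at both ages (0.32 ± 0.10 and 0.64 ± 0.10), its call at 3 months being lost without any 1 of 12 arrays. Eda2r, a death receptor of the TNF family (0.81 ± 0.21), and Zmat3, a zinc finger protein that binds RNA (0.64 ± 0.16), rose at 8 months. The group means of Eda2r were all below the array medians (4.91 to 5.04). Perp, a membrane protein of desmosomes, fell at both ages (-0.64 ± 0.13 and -0.88 ± 0.13).

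Promoter windows from RefSeq on GRCm38.p6, from 250 bases before the start site to 50 after it, are shown for a pair of these genes because they hold the letters of the p53 half-site. Capitals mark each match on either strand, and the windows run 5′ to 3′ on the strand of the gene.
Cdkn1a: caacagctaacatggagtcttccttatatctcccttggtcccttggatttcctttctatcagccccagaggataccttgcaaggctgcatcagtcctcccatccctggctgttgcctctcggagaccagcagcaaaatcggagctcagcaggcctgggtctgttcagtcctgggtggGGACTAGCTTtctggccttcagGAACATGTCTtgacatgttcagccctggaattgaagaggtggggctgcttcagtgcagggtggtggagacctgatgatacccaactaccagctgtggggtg
Ccng1: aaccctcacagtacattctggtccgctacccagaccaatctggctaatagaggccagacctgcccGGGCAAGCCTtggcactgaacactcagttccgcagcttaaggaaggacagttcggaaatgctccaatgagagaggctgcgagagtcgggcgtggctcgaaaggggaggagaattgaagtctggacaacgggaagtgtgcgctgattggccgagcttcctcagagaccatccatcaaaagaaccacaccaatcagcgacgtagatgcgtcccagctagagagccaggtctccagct
The Cdkn1a window (chr17:29090729-29091028, plus strand) is that of an upstream start site and had matches starting 73 and 51 bases before it, and a second Cdkn1a window (chr17:29093519-29093818) had none. The Ccng1 window (chr11:40755237-40755536, minus strand) had 1 match, starting 185 bases before the start site, and the Phlda3 window had none. The half-site was found in 10 of 32 windows of the p53 targets (31.2%), in 10 of 59 windows of the late only genes (16.9%) and in 65 of 972 windows of the early and kept genes (6.69%), against 8.36% of 32851 windows of all genes. A match of letters is a description of the sequence and not a binding site.

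Late falls were more numerous than late rises. Tnfaip8l1, a member of the family of TNF-induced proteins which control cell survival, had the lowest adjusted p for a change of all genes (0.000707). It was at 8.82, 8.90, 8.88, 8.56 and 8.63 in the WT and at 8.88, 9.46, 9.15, 9.03 and 8.85 in the KO of 3 months. At 8 months it was at 8.81, 9.14, 9.07, 9.11 and 8.87 in the WT and at 8.18, 8.10, 7.96, 7.76 and 7.78 in the KO. All KO of 8 months were below all other 15 arrays, and the effect went from 0.31 ± 0.11 to -1.05 ± 0.11. Mn1, a transcriptional co-regulator, went from -0.13 ± 0.25 to -1.89 ± 0.25, and Sdr9c7, a short-chain dehydrogenase, from -0.69 ± 0.25 to -2.40 ± 0.25. Glo1, the glyoxalase that removes methylglyoxal, went from -0.32 ± 0.12 to -1.12 ± 0.12 and Cyp2c37, a cytochrome P450, from -0.49 ± 0.17 to -1.62 ± 0.17. The changes of these 4 genes were lost without any 1 of 8, 13, 13 and 12 arrays, respectively. Lipg, the endothelial lipase, had effects of 0.31 ± 0.14 and -0.57 ± 0.14, and 1 of its 3 probe sets read -0.05 at 8 months. Its change was lost without any 1 of 14 arrays and with the brightest probe set.

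Hsd3b5, a steroid dehydrogenase which is expressed in male mouse liver, was at 9.82, 11.73, 11.96, 11.67 and 11.59 in the KO of 3 months and at 8.64, 7.83, 8.36, 8.08 and 9.69 in the KO of 8 months, against 10.85 to 12.44 in the 10 WT. The effect of -3.21 ± 0.36 at 8 months was called and that of -0.96 ± 0.36 at 3 months was not, although the genotypes did not overlap there. Its change was at the threshold and was lost without any 1 of 16 arrays. Slco1a1, Elovl3 and Ugt2b38 are also male-biased genes of mouse liver, and Sult1e1 and Cyp17a1 are female-biased. Of 22 male-biased genes, 1 was higher and 6 lower at 3 months, and 5 were higher and 8 lower at 8 months. Of 23 female-biased genes, 5 were higher and 0 lower by limma, and then 7 were higher and 3 lower. The male-biased list was called in 31.8% and 59.1% of its genes and the female-biased list in 21.7% and 43.5%. Of all genes 7.78% and 17.6% were called. From 3 to 8 months in the WT, 0 male-biased genes were higher and 5 lower, and 4 female-biased genes were higher and 1 lower. In that comparison 0.66% of all genes were higher and 1.29% lower. Bcl6, a repressor of female-biased genes, fell by 1.57 ± 0.27 at 8 months, and Stat5b, the transducer of growth hormone signals, fell by 0.49 ± 0.11, while neither was called at 3 months or for a change.

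Marco, a scavenger receptor of Kupffer cells, and Nlrp12, a regulator of inflammation in myeloid cells, fell late. Marco was between 5.71 and 7.42 in the 10 WT, between 5.87 and 6.86 in the KO of 3 months and between 4.86 and 5.50 in the KO of 8 months. Its effect went from 0.33 ± 0.25 to -1.30 ± 0.25, and that on Nlrp12 from 0.49 ± 0.34 to -1.78 ± 0.34. The calls were lost without any 1 of 12 and of 9 arrays. Of 26 measured macrophage and Kupffer cell markers, 2 were lower at 3 months, and 2 were higher and 2 lower at 8 months, or 7.69% and 15.4% of the list, which is near the 7.78% and 17.6% of all genes. Their mean level lay between 7.27 and 7.83 in the KO of 3 months and between 7.15 and 7.66 in the KO of 8 months, which overlapped with the WT (7.31 to 7.76 and 7.10 to 7.56). In whole liver, fewer cells of a type and less RNA per cell cannot be told apart.

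A change of the effect can come from the KO, from the WT or from both. Of the 101 genes, the KO differed between the ages in 71 and the WT in 25, and the KO moved more than the WT in 69. Among the 66 late only genes the KO changed with age in 44, the WT in 16 and neither in 6. Over all genes 1104 (6.07%) differed between 8 and 3 months in the KO, 285 higher (1.57%) and 819 lower (4.5%). Of these calls 25.8% were higher, against 39.3% of 922 calls after quantile normalization. The WT differed between the ages in 354 genes (1.95%), 120 higher (0.66%) and 234 lower (1.29%).

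Ppp1r3g, a subunit that directs phosphatase 1 to glycogen after a meal, had the largest age difference in the WT among the 101 genes. It was at 3.21, 3.55, 3.41, 3.88 and 3.59 in the WT of 3 months and at 5.90, 9.15, 7.57, 7.03 and 5.01 in the WT of 8 months. It stayed between 3.19 and 3.57 in all 10 KO. The effect was -3.58 ± 0.46 at 8 months, the WT rose by 3.40 ± 0.46 and the KO difference was -0.04 ± 0.46. Both KO groups and the WT of 3 months were below the array medians (4.91 to 5.04), as for Anxa13, so that the sizes of these differences are uncertain. Nipal1, a magnesium transporter, was likewise not called for age in the KO (0.08 ± 0.13) and rose in the WT (1.31 ± 0.13). Both changes, of -3.44 ± 0.65 and -1.23 ± 0.19, held in all 20 omissions and were lost in the fit of all 39 arrays (adjusted p = 0.105 and 0.393, lowest over the alternatives 0.0014 and 0.0015), that of Ppp1r3g also without moderated variances. Cyp4a14, a fatty acid hydroxylase driven by PPAR alpha, rose by 3.66 ± 0.65 in the WT with age and was 3.74 ± 0.65 lower in the KO than in the WT at 8 months, without a called change of the effect (adjusted p = 0.31).

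**Figure D3:**
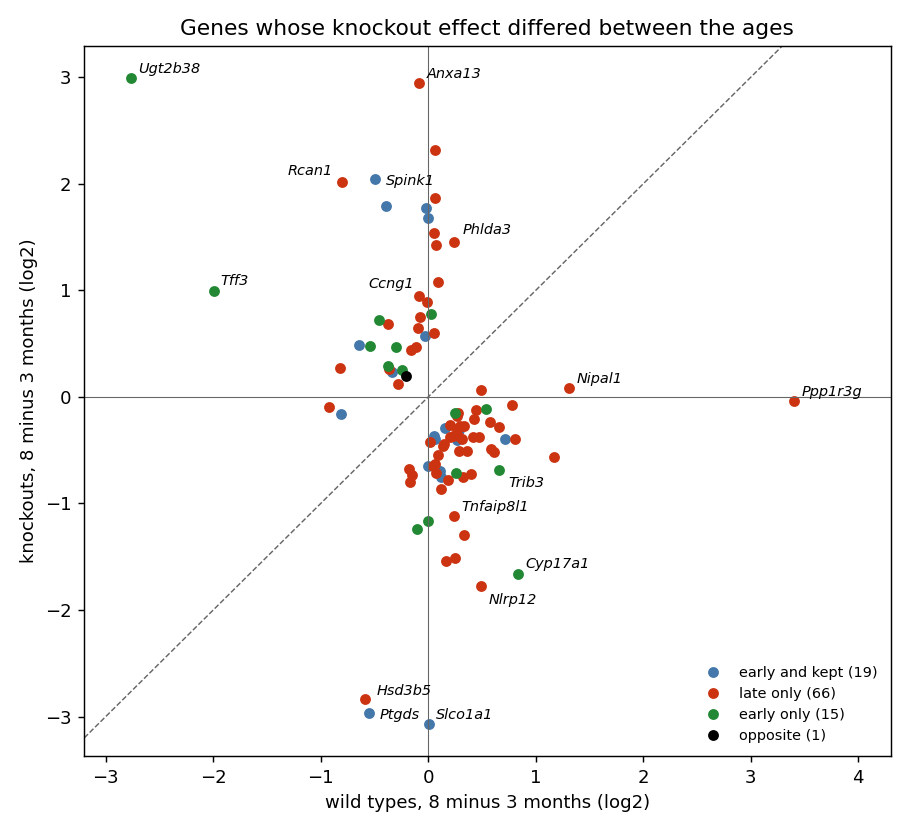
Difference between 8 and 3 months in WT (horizontal, log2) and in KO (vertical, log2) for the 101 genes called for a change of the effect, coloured by class. Points near the vertical line moved in the KO (Anxa13, Slco1a1, Phlda3), and Ppp1r3g and Nipal1 moved in the WT. Ugt2b38 and Tff3 lie at a rise in the KO and a fall in the WT. Of these, only the KO rise of Ugt2b38 and the WT fall of Tff3 were called.

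Effects of steatosis that were lost in steatohepatitis were fewer. Cyp17a1, the steroid 17-hydroxylase, was at 6.97, 6.77, 6.16, 6.90 and 7.26 in the WT and at 9.29, 9.02, 9.09, 8.30 and 8.98 in the KO of 3 months. At 8 months it was at 7.64, 8.15, 8.37, 7.10 and 6.99 in the WT and at 7.71, 7.65, 7.10, 7.31 and 6.62 in the KO, where the genotypes overlapped. The effect went from 2.13 ± 0.27 to -0.37 ± 0.27 (change -2.50 ± 0.38, adjusted p = 0.00401). This call held in all 20 omissions and was lost in the fit of all 39 arrays (adjusted p = 0.284, range over the alternatives 0.00172 to 0.284). Mmd2, a membrane protein of the progestin receptor family, went from 1.21 ± 0.12 to 0.07 ± 0.12, and Extl1, a glycosyltransferase of heparan sulfate, from 1.18 ± 0.16 to 0.02 ± 0.16. Both held in all 20 omissions, but the change of Extl1 was lost in the fit of all 39 arrays and without moderated variances (highest adjusted p = 0.0595, lowest 0.00381), and 1 of the 3 probe sets of Mmd2 read 0.09 at 3 months.

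Ptgds, the prostaglandin D2 synthase, and the chloride channel protein Clic3 were the only genes whose effect was kept and smaller at 8 months, and Clic3 was named after its values were seen. Ptgds was at 11.44, 11.26, 9.91, 12.02 and 12.06 in the KO of 3 months and at 8.19, 9.16, 8.90, 7.23 and 8.37 in the KO of 8 months, against 5.82 to 6.89 in the 10 WT. The KO of the ages did not overlap with each other or with the WT. The change of -2.42 ± 0.48 (adjusted p = 0.028) was lost without any 1 of 4 arrays, and that of Clic3 (-0.65 ± 0.14, adjusted p = 0.0347) without any 1 of 14.

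The falls of Ugt2b38, a glucuronosyltransferase, and Tff3, a trefoil peptide of mucous epithelia, were the largest early only effects and the least even. Ugt2b38 was at 9.79, 10.52, 9.67, 10.42 and 10.10 in the WT and at 4.24, 4.58, 5.30, 4.64 and 4.37 in the KO of 3 months. At 8 months it was at 7.33, 6.83, 6.17, 8.11 and 8.25 in the WT and at 4.41, 8.28, 4.71, 10.26 and 10.44 in the KO. Thus 2 KO of 8 months stayed at the low level of the KO of 3 months and 3 were above all 5 WT of their age. The effect of -5.47 ± 0.87 at 3 months and 0.28 ± 0.87 at 8 months gave a change of 5.75 ± 1.23 (adjusted p = 0.0327), which ended when any 1 of 11 arrays was omitted. The Ugt2b genes are near-identical copies whose probes can cross-hybridise, and the value is uncertain for that reason. Tff3 went from -3.88 ± 0.44 to -0.89 ± 0.44 with a fall of 2.00 ± 0.44 in the WT, and its call was also lost without any 1 of 11 arrays.

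Trib3, a pseudokinase induced by amino acid shortage and endoplasmic reticulum stress, was early only, whereas Asns, induced by the same route, was kept. Trib3 was at 5.71, 5.42, 5.82, 5.52 and 5.48 in the WT and at 6.83, 7.09, 6.81, 6.33 and 6.09 in the KO of 3 months. At 8 months it was at 5.92, 6.65, 6.33, 6.34 and 6.01 in the WT and at 6.08, 6.08, 5.79, 5.82 and 5.92 in the KO. The effect went from 1.04 ± 0.16 to -0.31 ± 0.16 (change -1.35 ± 0.22, adjusted p = 0.00844), with the KO falling by 0.69 ± 0.16 and the WT rising by 0.66 ± 0.16 with age. For Asns the change was 0.45 ± 0.40 (adjusted p = 0.77). Of 37 measured genes of the amino acid and unfolded protein stress responses, 6 were higher and 1 lower at 3 months, 9 were higher and 3 lower at 8 months, and Trib3 alone was called for a change. The list was called in 18.9% and 32.4% of its genes, against 7.78% and 17.6% of all genes. For a change 2.7% of the list was called, against 0.555% of all genes.

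The promoter windows of these genes are shown because each holds 1 match to the letters TGATGNAAN, a core of the amino acid response element, in capitals.
Asns: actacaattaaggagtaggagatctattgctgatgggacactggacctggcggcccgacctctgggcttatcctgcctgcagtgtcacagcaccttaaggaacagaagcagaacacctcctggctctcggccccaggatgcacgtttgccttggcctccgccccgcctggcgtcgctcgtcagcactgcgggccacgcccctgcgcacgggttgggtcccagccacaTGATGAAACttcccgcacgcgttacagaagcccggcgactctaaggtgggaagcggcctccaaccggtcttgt
Trib3: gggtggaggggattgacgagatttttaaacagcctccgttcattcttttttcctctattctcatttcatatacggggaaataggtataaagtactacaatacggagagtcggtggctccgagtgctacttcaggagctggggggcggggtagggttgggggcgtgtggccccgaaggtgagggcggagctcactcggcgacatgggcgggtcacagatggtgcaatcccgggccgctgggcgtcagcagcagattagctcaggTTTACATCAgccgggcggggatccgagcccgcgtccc
The Asns match (window chr6:7693160-7693459, minus strand) started 23 bases before the start site, and the Trib3 match (window chr2:152344011-152344310, minus strand) started 13 bases after the start site. The letters were found in 9 of 36 windows of the list (25%) and in 3.95% of all windows.

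**Figure D4:**
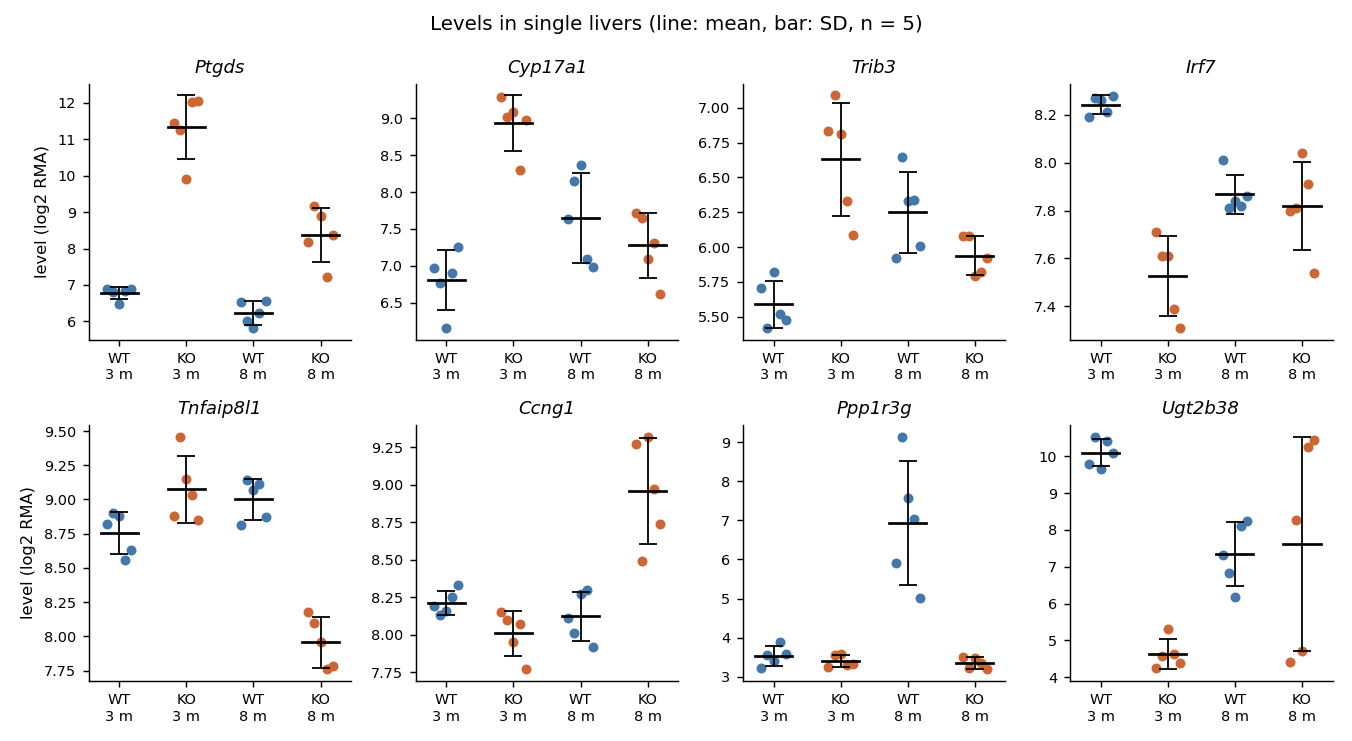
Level (log2 RMA value) of 8 genes on each of 20 arrays, by genotype and age (m, months). Points are single arrays, lines the group means and bars the SD (n = 5). Ptgds, Cyp17a1, Trib3 and Irf7 differed more at 3 months, Tnfaip8l1 and Ccng1 moved in the KO of 8 months, Ppp1r3g moved in the WT, and Ugt2b38 was split among the KO of 8 months.

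Genes of the interferon response, by which cells answer viral and other nucleic acids, were called lower in steatosis more often than all genes. Of 38 measured genes 13 were lower and 0 higher at 3 months by limma, against 2.99% of all genes lower, and 5 were higher and 2 lower at 8 months. The list was called in 34.2% and 18.4% of its genes, against 7.78% and 17.6% of all genes. Of the 13 early falls, 2 were kept and 2 were early only. The other 9 were called only at 3 months and did not pass the test for a change, so that a loss was not shown for them. The median effect was -0.308 at 3 months and -0.011 at 8 months, and 3 genes were called for a change, all with a higher effect at 8 months. They make up 7.89% of the list, against 0.203% of all genes called with a higher effect. Irf7, the transcription factor that amplifies interferon production, was at 8.19, 8.27, 8.26, 8.21 and 8.28 in the WT and at 7.71, 7.61, 7.61, 7.39 and 7.31 in the KO of 3 months. At 8 months it was at 8.01, 7.81, 7.84, 7.82 and 7.86 in the WT and at 7.80, 7.81, 8.04, 7.91 and 7.54 in the KO. The effect went from -0.72 ± 0.08, with no overlap, to -0.05 ± 0.08, with overlap (change 0.67 ± 0.12, adjusted p = 0.0136). It held in all 20 omissions and was lost in the fit of all 39 arrays (adjusted p = 0.367, range over the alternatives 0.00156 to 0.367). Ifi27, an interferon-induced membrane protein, went from -0.98 ± 0.10 to -0.23 ± 0.10, a change lost without WT replicate 3 of 3 months.

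Mx2, an antiviral GTPase, moved from -0.12 ± 0.09 to 0.48 ± 0.09, a call lost without any 1 of 13 arrays. Usp18, which ends interferon signalling (1.09 ± 0.21), and Cxcl10, a chemokine for T cells (1.27 ± 0.38), rose at 8 months without a called change, the call of Cxcl10 being lost without any 1 of 3 arrays. Bst2, the tetherin that holds viruses at the cell surface, stayed lower at both ages (-0.82 ± 0.09 and -0.72 ± 0.09), as did the chaperone Rtp4 (-0.57 ± 0.09 and -0.35 ± 0.09). The early only genes outside this list held Ifi207, an interferon-inducible protein (-0.87 ± 0.16 and 0.15 ± 0.16), whose change was lost without any 1 of 18 arrays, and Ly86, a partner of the Toll-like receptor relative RP105 (-1.05 ± 0.18 and 0.12 ± 0.18), lost without any 1 of 15. The group means of Ifi207 were all below the array medians (4.91 to 5.04).

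Markers of lymphocytes were counted beside these genes. Of 21 T and NK cell markers 3 were lower at 3 months and 1 at 8 months, and 12 of the 21 were at or below the array medians in all groups. The calls make up 14.3% and 4.76% of these markers, against 7.78% and 17.6% of all genes. Their mean level lay between 4.68 and 4.86 in the WT and between 4.59 and 4.70 in the KO of 3 months, and between 4.79 and 4.91 in the WT and between 4.59 and 4.95 in the KO of 8 months. Their part in the interferon result was not tested.

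The windows of Bst2, which was kept, and of Ifi207, which was early only, are shown because they hold the interferon-stimulated response element, searched on both strands and set in capitals.
Bst2: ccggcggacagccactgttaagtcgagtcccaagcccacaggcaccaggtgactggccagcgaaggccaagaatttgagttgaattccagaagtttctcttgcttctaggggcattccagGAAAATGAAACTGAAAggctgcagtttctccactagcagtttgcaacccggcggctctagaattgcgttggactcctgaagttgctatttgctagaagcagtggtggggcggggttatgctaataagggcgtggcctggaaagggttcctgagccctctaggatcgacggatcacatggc
Ifi207: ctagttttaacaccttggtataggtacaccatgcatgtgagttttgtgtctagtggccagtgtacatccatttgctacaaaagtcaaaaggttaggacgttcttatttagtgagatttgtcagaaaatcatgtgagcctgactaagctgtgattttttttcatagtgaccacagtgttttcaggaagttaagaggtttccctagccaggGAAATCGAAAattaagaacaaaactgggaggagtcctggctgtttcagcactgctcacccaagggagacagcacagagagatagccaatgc
Bst2 (chr8:71537423-71537722, minus strand) had 2 overlapping matches, starting 130 and 124 bases before the start site, and Ifi207 (chr1:173741760-173742059, minus strand) had 1, starting 41 bases before it. The element was found in 15 of 37 windows of the interferon list (40.5%) and in 3.44% of all windows.

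Acute phase proteins, which hepatocytes secrete in inflammation, were called at 8 months, and none was called for age in the KO. Of 31 measured genes 2 were higher at 3 months, and 14 were higher and 2 lower at 8 months (6.45% and 51.6% of the list, against 7.78% and 17.6% of all genes). For a change of the effect and for age in the KO 0 of 31 were called by limma, against 0.555% and 6.07% of all genes. In the WT 9 were lower at 8 months than at 3 months (29%), against 1.29% of all genes. Saa1, the serum amyloid A, was at 9.70, 13.34, 14.22, 12.54 and 14.34 in the WT of 3 months and at 9.11, 8.55, 9.83, 9.38 and 9.54 in the WT of 8 months. In the KO it was at 14.39, 13.78, 13.22, 13.16 and 14.06 at 3 months and at 13.96, 14.47, 13.58, 13.01 and 13.51 at 8 months. The KO of both ages overlapped, 4 of 5 WT of 3 months were near them, and WT replicate 1 of 3 months and all WT of 8 months were low. Lcn2, the lipocalin that withholds iron from bacteria, was more spread, at 5.06, 9.27, 11.88, 7.70 and 12.95 in the WT of 3 months and between 4.44 and 5.64 in those of 8 months, against 9.76 to 13.55 in the 10 KO. Of the WT of 3 months 2 were in the KO range and 3 below all KO. The effects on Lcn2 were 1.83 ± 1.03 and 6.35 ± 1.03, those of Saa2 1.14 ± 0.87 and 5.10 ± 0.87 and those of Orm2 0.26 ± 0.85 and 4.08 ± 0.85, with adjusted p values of the change of 0.206, 0.187 and 0.197. Orm3 (2.27 ± 0.40 and 3.91 ± 0.40) and Apcs, the serum amyloid P component (1.39 ± 0.23 and 1.81 ± 0.23), were higher at both ages.

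Cell cycle genes, most of which are made only in dividing cells, were called at 8 months. Of 41 measured, 0 were called at 3 months by limma, and 10 were higher and 1 lower at 8 months, with a median of 0.162. This is 26.8% of the list, against 17.6% of all genes, and 26 of the 41 were at or below the array medians in all groups. Mki67, a marker of proliferation, was at 5.20, 5.68, 5.09, 5.78 and 4.89 in the KO of 3 months and at 6.05, 5.38, 6.12, 6.99 and 4.68 in the KO of 8 months, against 4.94 to 5.52 and 4.47 to 4.92 in the WT. Replicate 5 of the KO of 8 months was within the WT range of its age and the other 4 were above it. Ccnb2, the mitotic cyclin B2, rose by 0.96 ± 0.26 with the same replicate within the WT range, and Ccne2, a cyclin of the start of DNA synthesis, rose by 1.32 ± 0.24. The group means of Ccne2 were all below the array medians (4.91 to 5.04). No gene of the list was called for a change by limma, against 0.555% of all genes. The adjusted p of the change lay between 0.292 and 0.358 for Mki67, Ccnb2 and Ccne2.

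Genes of fetal liver and liver carcinoma, a list that holds Spink1, Anxa13 and Bex4, were higher in 4 and lower in 2 of 33 at 3 months and higher in 11 and lower in 3 at 8 months. This is 18.2% and 42.4% of the list, against 7.78% and 17.6% of all genes, and 17 of the 33 were at or below the array medians in all groups. For 4 genes of the list, Spink1, Anxa13, Bex4 and Tff3, a higher effect at 8 months was called (12.1%, against 0.203% of all genes). Afp, the alpha-fetoprotein, was between 4.33 and 4.64 in the KO of 3 months and at 6.15, 5.45, 6.10, 5.12 and 4.60 in those of 8 months, against 3.98 to 4.25 in the 10 WT. Its rise of 1.41 ± 0.20 at 8 months is the mean of probe sets that read 3.44, 1.5, 1.98, -0.32 and 0.46. The WT and the KO of 3 months were below the array medians (4.91 to 5.04). Ly6d, a surface protein of keratinocytes and B cell progenitors, rose by 2.01 ± 0.28, and Scd2, the desaturase of fetal liver, by 1.76 ± 0.32 at 8 months. Their changes did not pass the test (adjusted p = 0.089, 0.0552 and 0.0839). Of 16 cholangiocyte markers, which include Anxa13, 3 were higher and 0 lower at 8 months, and 0 were called at 3 months by limma. At 8 months this is 18.8% of the list, against 8.18% of all genes higher and 17.6% called in either direction. Their mean level lay between 5.01 and 5.38 in the KO of 8 months and between 4.80 and 4.96 in the other 15 arrays, and 8 of the 16 were at or below the array medians in all groups. The part of bile duct cells in these values was not tested.

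Endothelial genes were called lower at both ages. Of 21 measured, 4 were lower at 3 months (19%, against 2.99% of all genes) and 15 at 8 months (71.4%, against 9.46%), and 0 were higher at either age by limma. The medians were -0.178 and -0.35, and 0 were called for a change by limma, against 0.555% of all genes. Their mean level lay between 6.61 and 6.73 in the KO of 3 months and between 6.34 and 6.75 in those of 8 months, against 6.74 to 6.99 and 6.86 to 7.08 in the WT, without overlap at either age. Clec4g, a lectin of sinusoidal endothelium, fell by 0.41 ± 0.05 and 0.66 ± 0.05 (-0.74 and -1.13 in the brighter of its 2 probe sets), and Lyve1, a hyaluronan receptor of the same cells, by 0.77 ± 0.23 and 0.82 ± 0.23. Wnt2, which central vein endothelium secretes to pattern the lobule, fell by 0.33 ± 0.10 and 0.58 ± 0.10, while Pecam1, the junction protein of all endothelium, was not called at 3 months and fell by 0.56 ± 0.14 at 8 months. The calls at 3 months of Lyve1 and Wnt2 were lost without any 1 of 10 and of 6 arrays.

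Hepatocyte transcription factors were not called at 3 months (0 of 27 by limma), and 8 were lower and 0 higher at 8 months. Cebpa, which drives hepatocyte genes of metabolism, fell by 0.36 ± 0.12 at 8 months, a call lost without any 1 of 10 arrays. Hnf4a, the nuclear receptor central to hepatocyte identity, had effects of -0.02 ± 0.11 and 0.16 ± 0.11 and was not called. Of 29 genes of glycolysis and gluconeogenesis, 1 was lower at 3 months, and 1 was higher and 8 lower at 8 months. Of 36 genes of the urea cycle and amino acid catabolism, 5 were higher and 3 lower and then 4 were higher and 12 lower, and of 30 genes of fatty acid synthesis and desaturation, 7 were lower and then 1 was higher and 13 lower. In the order given, these 4 lists were called in 0%, 3.45%, 22.2% and 23.3% of their genes at 3 months, against 7.78% of all genes. At 8 months they were called in 29.6%, 31%, 44.4% and 46.7%, against 17.6% of all genes. None of these 4 lists held a gene called for a change, against 0.555% of all genes called.

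Genes of the circadian clock were called at both ages. Of 21 measured, 3 were higher and 4 lower at 3 months, 9 were higher and 7 lower at 8 months, and 0 were called for a change by limma. The list was called in 33.3% and 76.2% of its genes, against 7.78% and 17.6% of all genes. A change was called for 0.555% of all genes. Dbp, an output factor of the clock, was at 10.11, 7.95, 6.55, 9.93 and 9.97 in the KO of 3 months and between 8.75 and 9.98 in those of 8 months, against 5.69 to 7.69 in the 10 WT. Arntl, the activator BMAL1, had effects of -0.53 ± 0.14 and -1.05 ± 0.14 (-1.18 and -1.89 in the brighter of its 2 probe sets), Cry1, a repressor of the clock, of -1.14 ± 0.23 and -1.32 ± 0.23, and Nfil3, which binds the same sites as Dbp, of -1.38 ± 0.34 and -1.45 ± 0.34. The calls of Dbp and Arntl at 3 months were lost without any 1 of 4 arrays. No source used here gives the hour at which the livers were taken, and its part in these values was not tested.

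**Figure D5:**
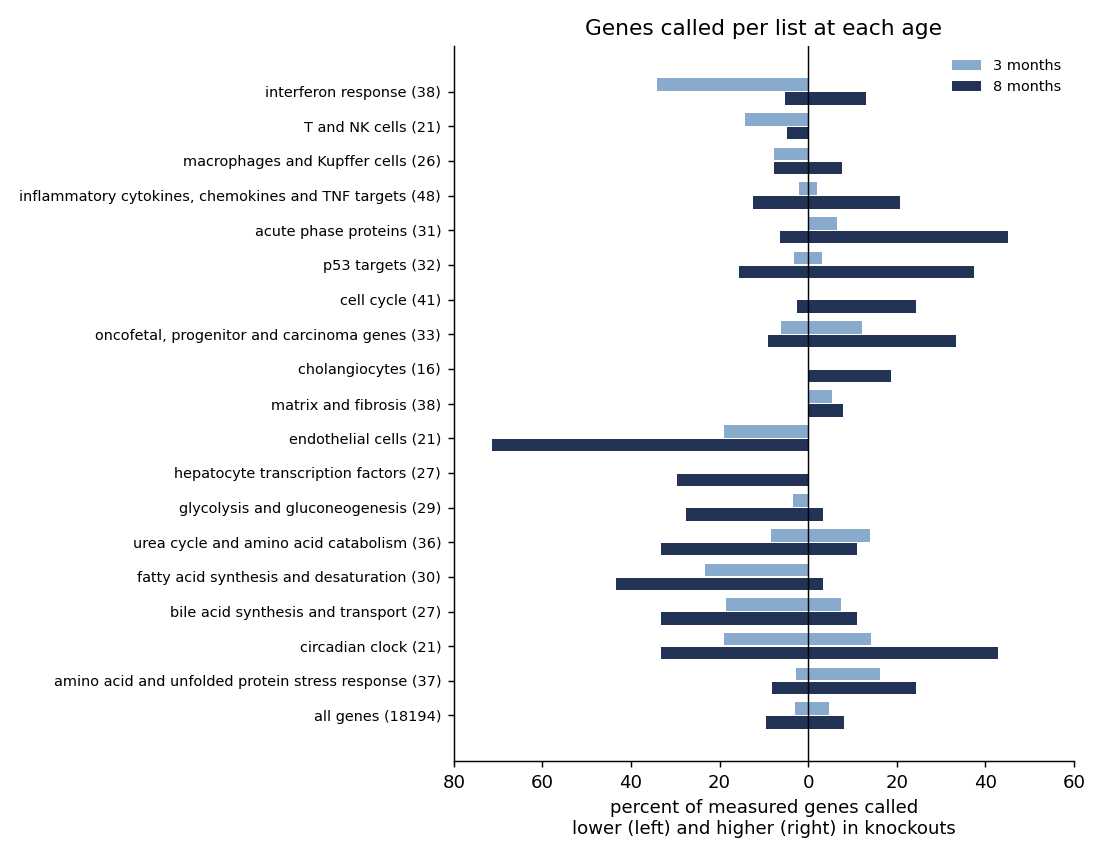
Percent of the measured genes of each list (number in parentheses) called lower (bars to the left) and higher (bars to the right) in the KO at 3 months (light) and at 8 months (dark). Interferon response genes were lower at 3 months, acute phase proteins, p53 targets and cell cycle genes were higher at 8 months, and endothelial genes were lower, 4 of 21 at 3 months and 15 of 21 at 8 months. All genes are given at the bottom.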

How the data were processed

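Liver RNA of the MAT1A cohort was measured on 20 Affymetrix arrays. Per the labels, the authors made the values with GCOS and RMA, whose versions are not given in the sources used here, and deposited 1 table of log2 expression values for 45101 probe sets. A second deposited file holds the log2 ratios of KO to WT that the authors computed, and was not used. By the platform annotation, 34958 probe sets list 1 gene, 932 several and 9211 none, and those with 1 gene were averaged to 18194 genes, as in the study. No gene or array was removed. Arrays hold no counts, so that the number of arrays limits the precision.

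All 20 arrays were fitted by limma 3.58.1 in R 4.3.3 (lmFit, eBayes, 4 group means), with Benjamini-Hochberg adjustment over all genes and calls at an adjusted p under 0.05, and the fit was tested on simulated data. The KO replicates are labelled biological and the WT only as replicates, so that p-values measure the spread between these samples. Alternatives changed the arrays fitted, the block, probe sets, filter, normalization, test and threshold, and left out each array.

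The genes named were drawn from Mat1a, Gnmt, 4 given markers and the 12 largest rises and falls of each class. They were also drawn from the 12 largest changes of the effect each way, Ccr2, genes that the study named and 44 lists. From each list up to 4 members by lowest p in each contrast could be drawn. Not all of these genes are described above. Cnmd, a late fall whose change held in all 20 omissions, was left out. Clic3, Cxcl10, Dbp, Eda2r, Ly6d, Mki67, Slc51b and Zmat3 fall outside this rule and were chosen after their values were seen. The classes, lists and members were chosen with earlier results of these data known. Promoter windows were searched with Python 3.11.15.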

Additional observations from a re-analysis of the deposited data

Results flagged for a closer look

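Of 376 pairs of a named gene and a group, 24 (6.38%) held 1 array far from the other 4, with a gap to its neighbour above 0.71 of the range of the group. Chance gives about 1 in 20. In WT replicate 1 of 8 months this was Gnmt (13.68, others 13.81 to 13.85) and Irf7 (8.01, others 7.81 to 7.86). In WT replicate 5 of 3 months this was Spink1 (5.63, others 4.28 to 4.62) and Ccnb2 (5.43, others 4.87 to 4.96). In WT replicate 3 of 3 months this was Ptgds (6.47, others 6.81 to 6.89). In KO replicate 3 of 8 months this was Dct (7.10, others 4.25 to 4.56) and Mmd2 (5.24, others 5.73 to 5.88). In KO replicate 2 of 8 months this was Lrit1 (3.98, others 3.31 to 3.43), Lcn2 (12.98, others 10.91 to 11.48), Orm2 (13.12, others 9.94 to 10.73) and Apcs (13.88, others 13.07 to 13.27). In KO replicate 1 of 3 months this was Gipc2 (6.02, others 5.16 to 5.37), Hsd3b5 (9.82, others 11.59 to 11.96), Klb (6.21, others 5.77 to 5.89), Orm2 (13.36, others 9.65 to 10.47) and Apcs (14.21, others 13.39 to 13.50). In WT replicate 2 of 8 months this was Klb (6.43, others 6.24 to 6.28) and Mki67 (4.47, others 4.81 to 4.92). In WT replicate 1 of 3 months this was Sdr9c7 (8.58, others 8.21 to 8.28) and Cyp4a14 (7.80, others 4.83 to 5.47). In KO replicate 5 of 3 months this was Ifi27 (8.74, others 9.0 to 9.09). In WT replicate 3 of 8 months this was Zmat3 (6.45, others 5.78 to 5.93). In KO replicate 4 of 8 months this was Perp (10.21, others 9.28 to 9.49) and Wnt2 (6.32, others 5.82 to 5.93).

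The KO effect differed between the ages, by the limma contrast of the effects, for 43 of the named genes. A higher effect at 8 months had Ugt2b38 (5.75), Anxa13 (3.03), Tff3 (2.99), Rcan1 (2.82), Spink1 (2.54), Tinag (2.25), Pls1 (2.18), Mgst2 (1.79), Parp16 (1.79), Bex4 (1.68), Gipc2 (1.49), Lrtm2 (1.36), Phlda3 (1.22), Ly86 (1.17), Pik3r1 (1.06), Ccng1 (1.04), Ifi207 (1.02), Akr1d1 (0.77), Ifi27 (0.75), Irf7 (0.67), Cdh1 (0.65), Mx2 (0.60), Ccr2 (0.40). A lower effect at 8 months had Ppp1r3g (-3.44), Slco1a1 (-3.08), Cyp17a1 (-2.50), Ptgds (-2.42), Nlrp12 (-2.27), Hsd3b5 (-2.25), Mn1 (-1.76), Sdr9c7 (-1.70), Marco (-1.62), Tnfaip8l1 (-1.36), Trib3 (-1.35), Nipal1 (-1.23), Extl1 (-1.16), Mmd2 (-1.14), Cyp2c37 (-1.13), Lipg (-0.87), Abcb11 (-0.81), Glo1 (-0.79), Clic3 (-0.65), Klb (-0.57).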

How the results depend on the processing

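The counts at each age were the most stable and those of the change of the effect the least. Without 1 array at a time, the calls at 3 months ranged from 1092 to 1527, those at 8 months from 2762 to 3366 and the early and kept genes from 792 to 999. The changes of the effect ranged from 35 to 236, the late only genes from 21 to 174, the early only genes from 5 to 29, the calls for age in KO from 604 (without KO replicate 2 of 3 months) to 1291 and those for age in WT from 155 (without WT replicate 2 of 3 months) to 507 (without WT replicate 1 of 3 months). The changes of the effect numbered 236, 48, 35, 66 and 42 without WT replicates 1 to 5 of 3 months, 156 and 50 without KO replicates 1 and 2 of 3 months, 43 and 164 without KO replicates 1 and 5 of 8 months, and 53 and 52 without WT replicates 2 and 3 of 8 months, and moved by less than 1.5 times without each of the other 9.

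With all 39 arrays in 1 fit the changes of the effect numbered 46, the late only genes 33, the early only genes 6 and the calls for age 671 in KO and 197 in WT. With the ordinary t-test on the same contrast these were 37 changes, 19 late only and 4 early only genes. At an adjusted p under 0.01, 783 genes were called at 3 months, 1967 at 8 months, 16 for the change, 327 for age in KO and 92 in WT, with 542 early and kept, 9 late only and 3 early only genes. At an adjusted p under 0.10 there were 219 changes, 1863 and 649 calls for age in KO and WT, 142 late only and 24 early only genes. With a difference of at least 1 there were 176 calls at 3 months, 369 at 8 months, 40 changes, 75 and 38 calls for age in KO and WT, 131 early and kept, 21 late only and 7 early only genes. Why the 39-array fit and the t-test called fewer was not tested.

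With the replicate number as a block there were 1369 calls at 3 months, 3104 at 8 months, 83 changes, 1059 and 314 calls for age in KO and WT, 922 early and kept, 52 late only and 10 early only genes. The deviations of same-numbered KO and WT arrays from their group means had r from -0.186 to 0.252. Replicate 5 had the highest r at both ages (0.163 at 3 months and 0.252 at 8 months). Whether same-numbered samples are paired cannot be told from these values.

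The effect on Adi1 at 8 months turned to 0.17 with the brightest probe set in place of the mean. Of 5463 values of named genes under an alternative, 4940 kept direction and call, 522 lost the call and that of Adi1 was the 1 that turned. Among named genes, the change of the effect was lost in the fit of all 39 arrays for Spink1, Phlda3, Bex4, Cdh1, Clic3, Pik3r1, Gipc2, Lrtm2, Ppp1r3g, Hsd3b5, Nlrp12, Marco, Nipal1, Cyp2c37, Klb, Glo1, Tff3, Cyp17a1, Extl1, Ly86, Ifi207, Irf7, Akr1d1 and Mx2. With the ordinary t-test it was lost for these genes except Spink1, Phlda3, Cdh1, Nipal1, Cyp17a1 and Irf7, and also for Pls1, Ptgds, Tinag, Mn1, Sdr9c7, Lipg, Ugt2b38, Ifi27 and Ccr2. Centring and quantile normalization moved the median of all genes by less than 0.1.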
